A study of Macaca fascicularis with 24 samples.

Results

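The local renin-angiotensin system was followed in old and young cynomolgus macaques (Macaca fascicularis) through 8 genes read in thoracic aorta: AGT, AGTR1, AGTR2, ACE, ENPEP, ANPEP, BDKRB2 and NR3C2. Every probe set whose gene symbol in the platform annotation was 1 of these names was taken, which gave 12 of the 22215 probe sets that are not controls: 3 for AGTR2, 2 each for AGTR1 and ENPEP and 1 for each other gene. Total RNA was read on 24 single-colour arrays, 6 for each of old males (mean age 20.0 years), young males (6.6 years), old females (21.2 years) and young females (7.2 years), with no treatment and no altered allele named in the labels. Arrays 1 and 4 of the old females, and arrays 3 and 4 in each of the young groups, differed less within the pair than any other arrays did (SD of the log2 difference up to 0.38, against 0.43 or more). Each of these 3 pairs was averaged and counted as 1 sample. This left 6 old males, 5 young males, 5 old females and 5 young females. The labels give 1 mean age per group and do not say that replicates are separate animals, so a p-value here measures only the spread between the samples. The gene identifiers of the array are human, and a mismatch with the monkey transcript can lower a probe set on all arrays alike. All 8 symbols have a gene in the RefSeq annotation of this macaque.

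In this system angiotensinogen, the product of AGT, is the source of angiotensin I, and angiotensin-converting enzyme (ACE) trims that to angiotensin II. Angiotensin II contracts vascular smooth muscle through its type 1 receptor (AGTR1), while the type 2 receptor (AGTR2) is known for opposing effects. Aminopeptidase A (ENPEP) and aminopeptidase N (ANPEP) shorten the angiotensin peptides in turn. ACE also degrades bradykinin, which relaxes vessels through the B2 receptor (BDKRB2), and the mineralocorticoid receptor (NR3C2) binds aldosterone, whose release angiotensin II stimulates.

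Smooth muscle genes marked the tissue: all 7 of its markers on the array passed the filter on low values, and each lay brighter than at least 96.8% of probe sets. On 7 arrays (6 samples: numbers 2 and 6 of the old females, 2 and 4 of the old males, 3 of the young females and 1 of the young males) the median correlation with all other arrays was 0.81 to 0.83, against 0.88 to 0.94 on the other 17. The actin control, whose 3′ signal gains on the 5′ signal as RNA degrades, gave a log2 ratio of 0.78 to 1.73 there, against -0.25 to 1.15 elsewhere. They are called the divergent samples here, and the age changes of the members are given with and without them.

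The first question was which members were detected. Levels are log2(intensity + 16) after quantile normalisation, and a probe set passed the filter if its mean over the 21 samples was at least 7.59, the median of all probe sets. Of the 12 member probe sets 5 passed: those of AGT and NR3C2, both of AGTR1 and 1 of ENPEP (204844_at). NR3C2 (205259_at) averaged 9.16, and AGT (202834_at) 8.25. For AGTR1 the means were 8.46 (208016_s_at) and 7.98 (205357_s_at), the latter the passing probe set nearest the limit. The second ENPEP probe set (204845_s_at) lay just below it at 7.40. Neither these levels nor any others here rank the genes by abundance, because probe sets differ in how strongly they read their target.

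The remaining members were dim. ACE (209749_s_at) had a mean of 6.86, BDKRB2 (205870_at) 6.05 and ANPEP (202888_s_at) 5.95, and the 3 AGTR2 probe sets 6.31, 6.25 and 5.86. Y-linked genes in the 10 female samples served as a measure of signal without a target, although some of these probe sets may read an X-linked relative. Over 19 such probe sets of 14 genes the 95th percentile was 7.68. Of all values 50.2% exceeded this level, and 48.3% of all probe sets had a mean above it. The level thus lay close to the filter and was not a separate measure of detection. The counts of samples above it are to be read against these shares. NR3C2 exceeded that level in 21 of 21 samples, AGTR1 in 18 and 16, ENPEP in 17 and 9, and AGT in 14. ACE exceeded it in 5, the AGTR2 probe set 222321_at in 4, and ANPEP, BDKRB2 and the other two AGTR2 probe sets in 0. All 5 of these ACE samples were divergent, so that without the divergent samples the counts were 0 of 15 for ACE and 1 of 15 for 222321_at. By this measure the signal of these dim members was not separable from the upper range of the Y-linked values. It does not show that the transcripts were absent.

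Probe sets of 1 gene were compared over the 21 samples in 5 pairs. Those of ENPEP moved together (Pearson's r = 0.75, Spearman's rho = 0.87, Benjamini-Hochberg adjusted permutation p = 0.00025 and 5e-05), with r = 0.78 without the 2 samples farthest from the median, 0.79 within the 15 other samples and 0.71 within the 6 divergent ones. Those of AGTR1 were less close (r = 0.52, adjusted permutation p = 0.0388, rho = 0.56, adjusted permutation p = 0.0231), with r = 0.52 without the 2 farthest, 0.64 within the 15 and 0.42 within the 6. For the 3 pairs of AGTR2 probe sets r was 0.18, 0.21 and -0.12, with adjusted permutation p-values from 0.544 to 0.588. Within the 15 other samples these were 0.17, 0.08 and -0.05, so the AGTR2 probe sets did not track each other.

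**Figure D1:**
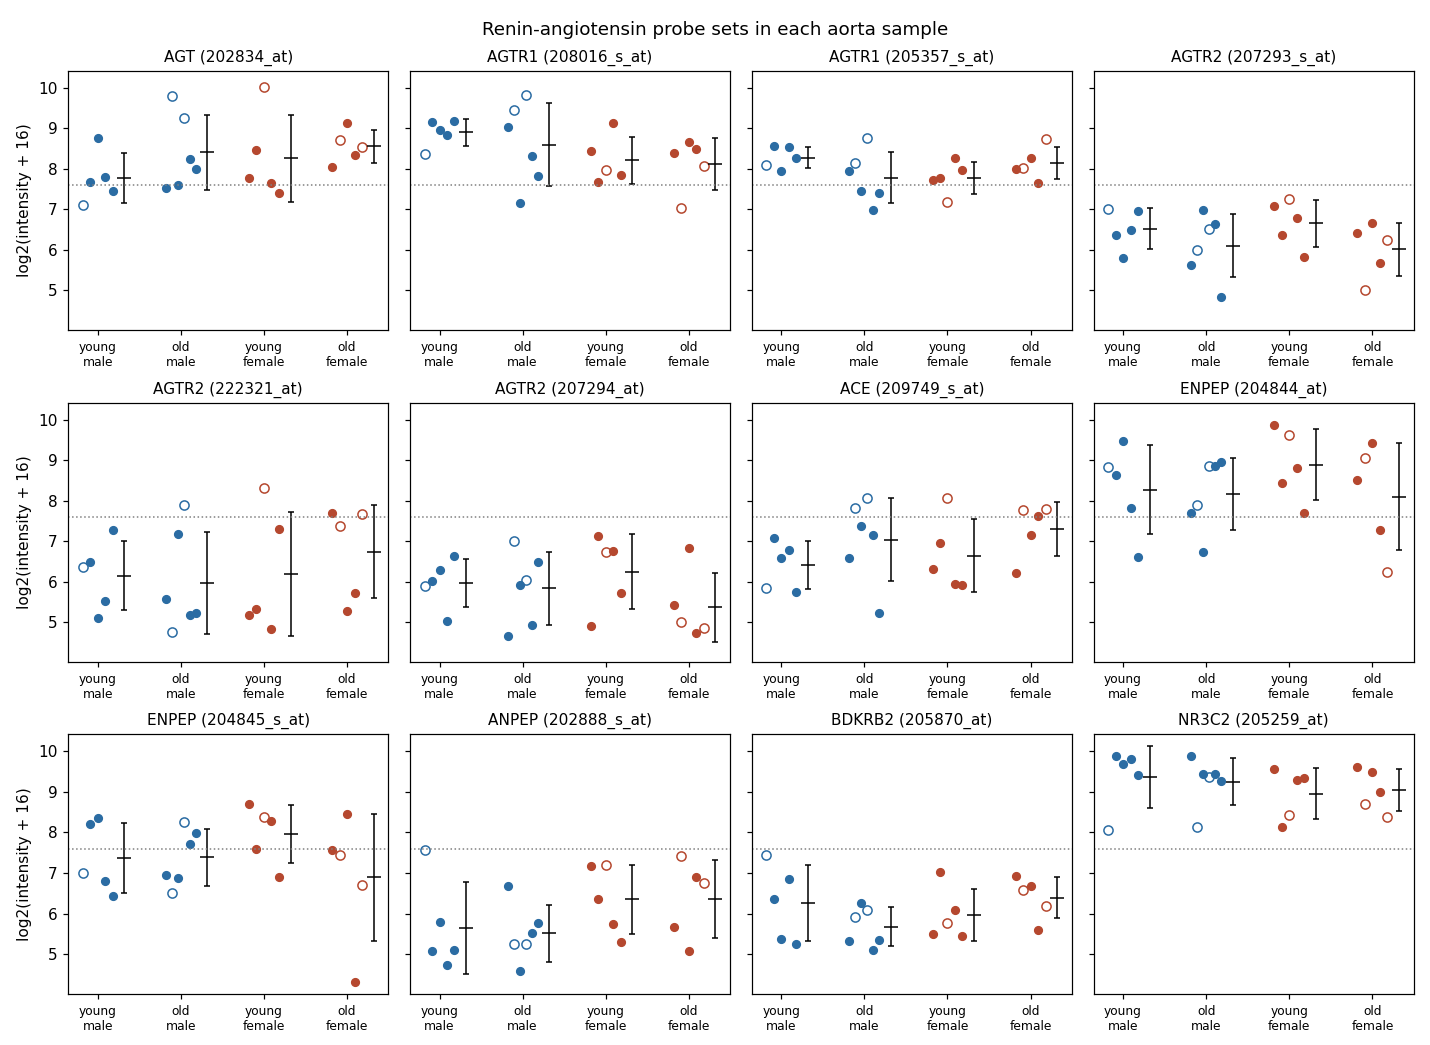
Level of each member probe set, as log2(intensity + 16) after quantile normalisation, in every sample by group (blue males, red females, open circles the 6 divergent samples, black bars mean ± SD, n = 6 old males and 5 in each other group). The dotted line is the filter at 7.59, with AGT, AGTR1, NR3C2 and 1 ENPEP probe set averaging above it. The old and young points of each sex overlap in every panel, which was not counted over all probe sets.

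The second question was how the members differ between old and young aorta. No member passed limma's threshold (Benjamini-Hochberg adjusted p below 0.05) in either sex. Of all 11108 probe sets tested, 0.018% were called in males and 0% in females. At an unadjusted p below 0.05 the counts were 0 of the 5 tested members in each sex, against 3.36% and 2.84% of all tested probe sets. With no filter they were 0 of 12 in each sex, against 3.93% and 4.01%. Of the 12, 3 had a higher mean in old males (49.5% of all 22215 probe sets did) and 7 in old females (49.7%). The old and young samples of a sex overlapped for every member, but overlap was not counted over all probe sets, so this does not set the members apart. In males the 5 tested members had a median log2 change of -0.11 (all tested probe sets -0.01), and in females of 0.08 (all tested -0.03). The values that follow are therefore descriptions, with 95% intervals from limma.

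AGT, the substrate of the system, had a higher mean in old animals of both sexes. In old males it read from 7.54 to 9.80 with a median of 8.12. The young males read 7.12, 7.46, 7.67, 7.80 and 8.77. Thus 2 old males, the divergent samples 2 and 4 at 9.80 and 9.26, lay above every young male, and the other 4 lay within the young range. The means were 8.40 ± 0.93 (SD, n = 6) and 7.76 ± 0.62 (n = 5), with a log2 change of 0.64 (interval -0.31 to 1.58, limma adjusted p = 0.9999). Without the 6 divergent samples the change in males was -0.09 ± 0.32 (SE, 4 against 4 samples). Old females read 8.04, 8.35, 8.53, 8.71 and 9.12. Young females read 7.40, 7.64, 7.76, 8.46 and 10.03, the last in the divergent sample 3. Apart from that sample most young females lay lower than the old ones, 3 of 5 below all of them, with a log2 change of 0.29 (-0.69 to 1.28, limma adjusted p = 0.9996). Without the divergent samples it was 0.69 ± 0.35 (limma unadjusted p = 0.0657, adjusted p = 0.911). Averaged over the sexes AGT differed by 0.47 ± 0.33, or 0.30 ± 0.24 without the divergent samples.

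Perivascular fat also makes angiotensinogen, and the white adipocyte markers spread widely within groups. Their mean level over the 8 on the array ran from 7.42 to 10.4 in old and from 6.75 to 10.4 in young males, and from 7.27 to 9.84 in old and 8.03 to 9.60 in young females. Of the 8, 5 passed the filter, and the defining markers ADIPOQ, PLIN1 and LEP did not. In males the 5 had a median log2 change of 1.72 with age, with 5 of 5 higher. Of these 3 had a limma unadjusted p below 0.05, against 3.36% of all tested probe sets. In females the median was 0.10, with 3 of 5 higher and 0 at an unadjusted p below 0.05, against 2.84% of all. In both sexes 0 of the 5 passed after adjustment. With the mean of the 8 as a covariate, the AGT change was 0.37 ± 0.50 in males and 0.25 ± 0.47 in females. The divergent old males 2 and 4 and young male 1 had the highest means of the 8 among males (10.3, 10.4 and 10.4). This fit therefore cannot separate the markers from the divergent samples, and the part of fat in the AGT values was not tested. In whole tissue, the number of cells of a type and the RNA per cell cannot be told apart.

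AGTR1, the receptor through which angiotensin II contracts the vessel, had lower means in old than in young males on both probe sets. On 205357_s_at the old males ran from 6.99 to 8.75 with a median of 7.70. The young males read 7.94, 8.10, 8.26, 8.54 and 8.55. Of the 6 old males 3 lay below every young male and 1, the divergent sample 4, above them all. The log2 change was -0.49 (interval -1.08 to 0.09, limma unadjusted p = 0.0956, adjusted p = 0.9999). On 208016_s_at the old males ran from 7.14 to 9.81 with a median of 8.68. The young males read 8.36, 8.84, 8.95, 9.15 and 9.19. Again 3 old males lay below all young ones, while the divergent samples 2 and 4, at 9.46 and 9.81, lay above. The change on this probe set was -0.30 (-1.14 to 0.54), and -0.0088 without old male 3, the lowest of the group at 7.14.

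Without the 6 divergent samples both AGTR1 probe sets gave a larger difference in males. It was -0.87 ± 0.24 on 205357_s_at (limma unadjusted p = 0.00219, adjusted p = 0.457) and -0.95 ± 0.35 on 208016_s_at (unadjusted p = 0.0160, adjusted p = 0.704). In that fit 5.94% of all tested probe sets had an unadjusted p below 0.05 in males. When limma weighted each sample by its fit, the changes were -0.88 ± 0.20 (adjusted p = 0.0678) and -0.74 ± 0.30 (adjusted p = 0.325), with 10.9% of probe sets at an unadjusted p below 0.05. The AGTR1 difference thus stayed short of the threshold under all these settings.

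In females AGTR1 was near equal on 1 probe set and higher in old animals on the other. On 205357_s_at old females read 7.65, 8.01, 8.03, 8.28 and 8.72. Young females read 7.17, 7.71, 7.77, 7.96 and 8.27. The groups shared most of their range, with a log2 change of 0.36 (-0.26 to 0.97, limma adjusted p = 0.9996) that was 0.05 ± 0.26 without the divergent samples. On 208016_s_at the change was -0.08 (-0.96 to 0.80), or 0.24 ± 0.38 without them. The difference of the age effects between the sexes, male minus female, was tested as an interaction. For 205357_s_at it was -0.85 ± 0.41 (limma unadjusted p = 0.0497, adjusted p = 0.9999). This was 1 of 5 tested members at an unadjusted p below 0.05, against 1.97% of all tested probe sets, and 0% passed after adjustment. With no filter its unadjusted p was 0.0565, which left 0 of 12 members against 2.88% of all probe sets. For 208016_s_at it was -0.22 ± 0.59. Without the divergent samples the 2 values were -0.92 ± 0.35 and -1.19 ± 0.52, both with a limma adjusted p of 0.999 and an unadjusted p below 0.05, as had 3.62% of all tested probe sets. No sex difference in the age effect of AGTR1 was therefore shown.

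AGTR2, the second angiotensin receptor, had all of its probe sets below the filter, so its values come from the fit of all 22215 probe sets. On 207293_s_at the level ran from 4.85 to 6.99 in old and 5.79 to 7.01 in young males, and from 5.02 to 6.67 in old and 5.82 to 7.26 in young females. Its log2 change was -0.42 in males, -0.65 in females and -0.54 ± 0.28 averaged over the sexes (limma unadjusted p = 0.0727, adjusted p = 0.963). Without the divergent samples these were -0.38, -0.25 and -0.32 ± 0.33. On 207294_at the changes were -0.13 in males, -0.88 in females and -0.50 ± 0.34 averaged, or -0.49, -0.47 and -0.48 ± 0.42 without the divergent samples. The third, 222321_at, differed by -0.18 in males and by 0.55 in females, or by -0.30 and 0.56 without them. The probe sets thus did not share 1 direction in females, and 2 of the 3 never rose above the Y-linked level.

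ACE, which makes angiotensin II and degrades bradykinin, had a higher mean in old animals of both sexes. Old males read from 5.24 to 8.06 with a median of 7.26. Young males read 5.75, 5.84, 6.59, 6.78 and 7.08. Of the 6 old males 4 lay above every young male and 1 below them all. The change was 0.63 (interval -0.37 to 1.63), but 0.03 ± 0.47 without the divergent samples. Old females read 6.20, 7.15, 7.63, 7.76 and 7.79. Young females read 5.92, 5.94, 6.31, 6.96 and 8.06. Here the 2 divergent old females gave the highest old values and the divergent young female the highest of all, and the change of 0.67 (-0.37 to 1.71) was 0.72 ± 0.51 without them. Averaged over the sexes ACE differed by 0.65 ± 0.35 (limma unadjusted p = 0.0752, adjusted p = 0.963), or 0.38 ± 0.35 without the divergent samples. Endothelium is a known site of ACE, and the mean of its 6 markers ran from 8.23 to 10.6 in old and 8.46 to 9.21 in young males, and from 8.06 to 9.57 in old and 7.97 to 10.3 in young females. With age their median change was 0.27 in males (6 of 6 higher) and -0.07 in females (3 of 6 higher), and their part in the ACE values was not tested.

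ENPEP, the aminopeptidase that takes the first residue from angiotensin II, varied more than most transcripts. Around the group means the residual SD of its probe sets was 1.05 and 1.01, above that of 95.8% and 94.7% of all probe sets. On 204844_at old males ran from 6.74 to 8.96 with a median of 8.37. Young males read 6.60, 7.83, 8.63, 8.84 and 9.46. The old males lay within the range of the young ones, and the change was -0.11 (-1.32 to 1.10), or -0.07 without the divergent samples. Old females read 6.25, 7.27, 8.50, 9.05 and 9.41. Young females read 7.70, 8.44, 8.81, 9.61 and 9.86. Of the 5 old females 2 lay below all young ones, with a change of -0.78 (-2.05 to 0.48, limma adjusted p = 0.9996) that was -0.31 ± 0.70 without the divergent samples. The dimmer probe set, 204845_s_at, gave 0.02 in males and -1.08 (-2.31 to 0.15) in females, where old female 5 read 4.30 against 6.70 to 8.45 in the other old females. Without old female 5 the change in females was -0.43, and without the divergent samples the changes were -0.07 ± 0.72 in males and -1.10 ± 0.78 in females. Averaged over the sexes the changes were -0.45 ± 0.42 and -0.53 ± 0.41, or -0.19 ± 0.48 and -0.58 ± 0.53 without the divergent samples. Pericytes are known to carry this enzyme. The mean of their 5 markers ran from 7.96 to 10.4 in old and from 9.33 to 10.3 in young females. In males it ran from 9.34 to 10.2 in old and from 9.70 to 10.4 in young animals. The values of 7.96 and 9.33 belong to divergent samples, old female 6 and young female 3, and the divergent old female 2 read 9.30. The male values of 9.34 and 9.70 belong to the divergent old male 2 and young male 1. All 5 markers had lower means in old females (median -0.51) and 4 of 5 in old males (median -0.27). The smooth muscle markers did so too, 7 of 7 in old females (median -0.40) and 6 of 7 in old males (median -0.13). Marker changes were not fitted without the divergent samples. The part of either cell type in the ENPEP values was not tested.

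ANPEP, the aminopeptidase of the next step, had no settled direction with age. It ran from 4.59 to 6.69 in old and 4.74 to 7.56 in young males (log2 change -0.14, interval -1.21 to 0.93). In females it ran from 5.07 to 7.43 in old and 5.30 to 7.20 in young animals (0.01, -1.11 to 1.13). Without the divergent samples the changes were 0.47 ± 0.49 in males and -0.27 ± 0.53 in females, and with the white adipocyte marker mean as a covariate the change in males was -0.79. Both intervals of the 21 samples reach past a change of 0.9 in either direction, so they do not exclude a difference of that size.

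BDKRB2, the bradykinin receptor, had means on opposite sides of 0 in the sexes. Old males ran from 5.10 to 6.27 and young males from 5.26 to 7.45, with a change of -0.59 (-1.41 to 0.23). Old females ran from 5.60 to 6.91 and young females from 5.44 to 7.03, with a change of 0.43 (-0.43 to 1.29). The interaction was -1.02 ± 0.57 (limma unadjusted p = 0.0890, adjusted p = 0.99995). Without the divergent samples these 3 values were -0.45 ± 0.46, 0.38 ± 0.49 and -0.83 ± 0.67. At levels within those of the Y-linked probe sets in females, neither value was separable from 0.

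NR3C2, the mineralocorticoid receptor, had nearly equal means in old and young animals. Old males ran from 8.13 to 9.88 with a median of 9.40. Young males read 8.05, 9.41, 9.68, 9.82 and 9.88. In each of these groups 1 divergent sample stood far below the rest, old male 2 at 8.13 and young male 1 at 8.05, and the change was -0.11 (-0.86 to 0.63). Old females read 8.38, 8.71, 9.003, 9.49 and 9.62. Young females read 8.14, 8.44, 9.30, 9.35 and 9.58. The change of 0.08 in females had an interval of -0.70 to 0.86, and without the divergent samples the changes were -0.19 ± 0.26 in males and 0.28 ± 0.29 in females.

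**Figure D2:**
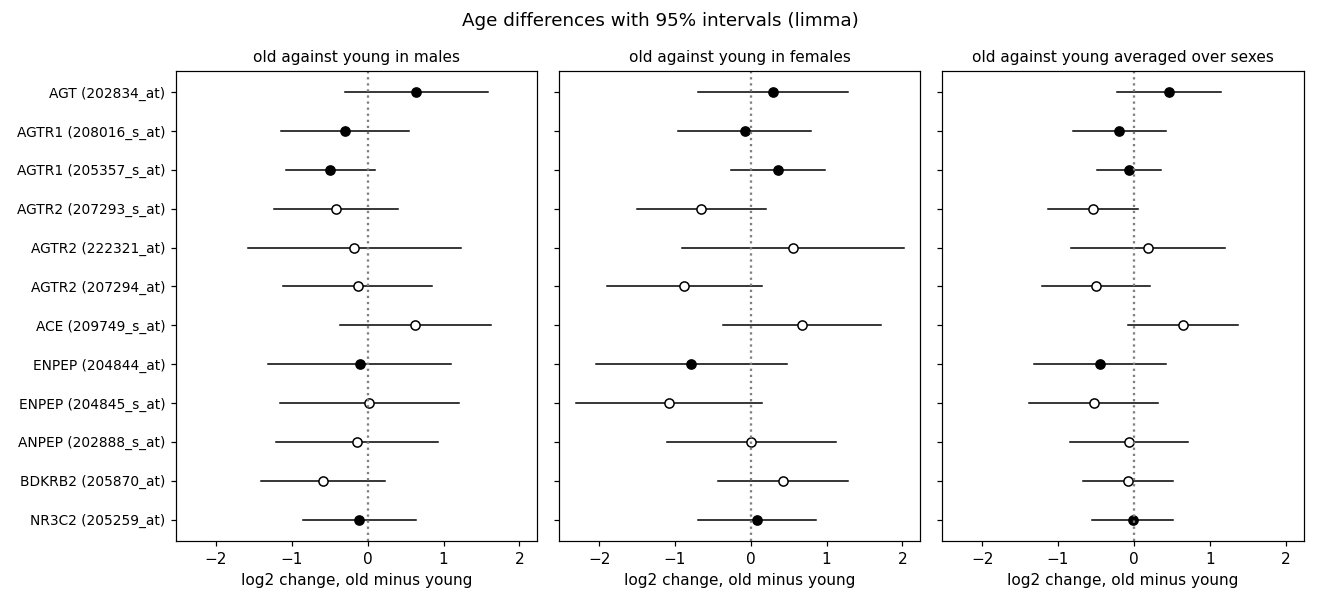
Log2 change of each member probe set, old minus young, with its 95% interval from limma, in males, in females and averaged over the sexes (filled circles passed the filter on low values, open circles come from the fit of all probe sets). Every interval includes 0, and the changes within a sex run from -1.08 for ENPEP (204845_s_at; -0.43 without old female 5) to 0.67 for ACE, both in females.

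Averaging the age effects over the sexes called 0 members, at 0% of all tested probe sets, with 0 of 5 at an unadjusted p below 0.05 against 4.38% of all, and 0 of 12 against 5.08% with no filter. The lowest limma adjusted p among the 5 was 0.985. Of the 12 probe sets 3 (AGT, ACE and AGTR2 222321_at) had a positive change and 9 a negative one, where 49.7% of all probe sets were positive. The 12 changes ran from -0.54 to 0.65.

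Males and females of 1 age were compared as well. No member was called in young or old animals, where 0.027% of all tested probe sets were, and 0 of 5 had an unadjusted p below 0.05 against 1.39% and 4.09%. With no filter 0 of 12 members were called, against 0.0225% of all probe sets in young and 0.027% in old animals, and 0 of 12 had an unadjusted p below 0.05, against 2.17% and 4.86%. In young animals AGTR1 had higher means in males on both probe sets, by 0.69 ± 0.42 (208016_s_at) and 0.50 ± 0.30 (205357_s_at). ANPEP had lower means in males at both ages (-0.70 ± 0.54 in young, -0.85 ± 0.52 in old animals, where it was -0.23 ± 0.53 without the divergent samples), and BDKRB2 in old animals (-0.72 ± 0.40). The limma adjusted p of these 5 values was 0.986 or higher.

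The divergent samples lay at the ends of the range for several members. These samples were set apart from their array values, and such counts were not made over all probe sets. The counts below therefore do not set the members apart. For ACE, 5 of the 6 divergent samples (7.76 to 8.06) lay above all 15 others (5.24 to 7.63), and young male 1 read 5.84. For AGT, 3 of the 6, at 9.26 to 10.03, lay above all others (7.40 to 9.12), and young male 1, at 7.12, below them. NR3C2 ran the other way, at 8.05 to 9.37 in the divergent and 8.14 to 9.88 in the other samples, with medians not compared by test because these samples were set apart from their array values. For AGTR1 (208016_s_at), AGTR2 (222321_at) and ANPEP 3 of the 6 lay beyond all others, on both sides for AGTR1 and AGTR2, and the means were 8.45 against 8.47, 7.06 against 5.92 and 6.57 against 5.70. The brighter ENPEP probe set covered 6.25 to 9.61 in the divergent and 6.60 to 9.86 in the other samples. The mean marker levels of these samples differed as well. Pericyte markers read 7.96 to 9.75 in the 6 divergent and 9.82 to 10.4 in the other samples. Smooth muscle markers read 11.9 to 13.5 against 13.3 to 14.3, and white adipocyte markers 8.56 to 10.4 against 6.75 to 9.71. RNA quality and tissue make-up cannot be told apart in these samples. The part of either was not tested beyond 1 fit each with the actin ratio and the white adipocyte marker mean as covariates.

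**Figure D3:**
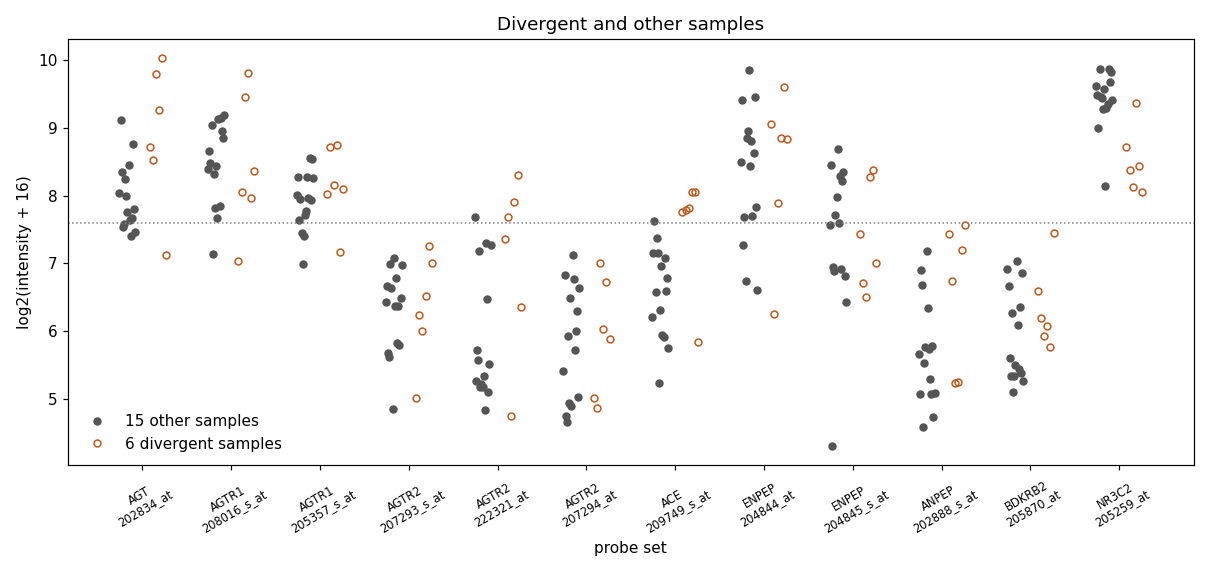
Level of each member probe set, as log2(intensity + 16), in the 6 divergent samples (open circles) and the 15 other samples (filled circles), with the filter at 7.59 as a dotted line. Of the 6 divergent samples 5 lie above all others for ACE, and 3 lie above and 1 below all others for AGT, which was not counted over all probe sets.

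Genes whose levels followed a member most closely were named for the 4 members past the filter, by Pearson's r of the deviations from the group means over 21 samples. AGT was followed by DAB2 (r = 0.88), an endocytic adaptor, ADGRG2 (0.87), an adhesion receptor, and DND1 (0.87), an RNA-binding protein. AGTR1 (208016_s_at) was followed by DBP (0.79), a clock-controlled transcription factor, PLPP3 (0.78), a lipid phosphatase, and SUMO4 (0.72). These values describe the samples and share their array quality. For ENPEP the nearest were ADGRG6 (0.79), GRIK2 (0.77) and BNIP3 (0.73), and for NR3C2 RSU1 (0.91), GLCE (0.89) and MAP2K5 (0.89). Over the 15 samples that are not divergent, r came to 0.82, 0.79 and 0.63 for AGT, 0.67, 0.72 and 0.51 for AGTR1, 0.85, 0.79 and 0.73 for ENPEP and 0.79, 0.76 and 0.72 for NR3C2. The ENPEP values were thus as high without the divergent samples, and the others were lower. The genes were picked for the highest r among all tested genes over samples that include these 15. The values over the 15 are therefore no separate check.

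The wider pathway was read from 5 lists of 81 genes in all, of which 69 were on the array and 41 had a probe set past the filter. MAS1, the receptor of angiotensin 1-7, did not pass. No gene of these lists was called with age in males, in females, averaged or in the interaction. At an unadjusted p below 0.05 there were 0 in males, 3 in females (1 higher, 2 lower), 4 averaged (1 higher, 3 lower) and 1 in the interaction. These are 7.32% of the 41 in females, against 2.84% of all tested probe sets, 9.76% against 4.38% averaged and 2.44% against 1.97% in the interaction.

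The list of angiotensin peptidases also holds ATP6AP2, which is not a peptidase. Among its 8 tested genes, 4 had a higher and 4 a lower mean with age averaged over the sexes (median log2 change -0.02, as for all tested probe sets). RNPEP, an aminopeptidase for basic residues, had the smallest p with -0.55 ± 0.21 (limma unadjusted p = 0.0146, adjusted p = 0.985). Its means were 9.48 ± 0.23 in young and 8.77 ± 0.60 in old females (SD, n = 5 each). In males they were 9.26 ± 0.40 in young (n = 5) and 8.86 ± 0.59 in old animals (n = 6). The change was -0.71 ± 0.30 in females and -0.40 ± 0.29 in males. With the white adipocyte marker mean as a covariate RNPEP was at -0.28. PREP (-0.43 ± 0.34), PRCP (0.18 ± 0.17), both proline-specific peptidases, and ERAP1 (0.12 ± 0.19) followed. Among 8 receptors and partners 3 were higher and 5 lower (median -0.08). RGS5, which shortens G protein signals of the type 1 receptor and also stands in the pericyte list, was at -0.62 ± 0.28 (limma unadjusted p = 0.0373, adjusted p = 0.985). GNA12, a G protein alpha subunit, was at -0.47 ± 0.24 (-0.22 without the divergent samples), with -0.98 ± 0.34 in females, 0.04 ± 0.33 in males and an interaction of 1.02 ± 0.48 (limma unadjusted p = 0.0450, adjusted p = 0.9999). RGS2 was at 0.38 ± 0.34 and the endothelin receptor EDNRB at 0.26 ± 0.25.

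In the kallikrein-kinin list 3 of 4 tested genes were higher (median 0.10): CPN1 (0.26 ± 0.19), KLKB1 (0.10 ± 0.23) and KLK1 (0.09 ± 0.21), with CPE at -0.42 ± 0.39. CPE was at -0.18 without the divergent samples and at -0.07 with the white adipocyte marker mean as a covariate. Of 7 steroid receptor and target genes 5 were higher and 2 lower (median 0.11). The subunits of sodium channel and pump SCNN1A (0.46 ± 0.29) and ATP1B1 (0.34 ± 0.30) and the steroid target TSC22D3 (0.11 ± 0.17) were above 0, and NEDD4L, which removes the channel from the membrane, was at -0.19 ± 0.20. ATP1B1 was at -0.08 without the divergent samples. None of these 8 genes had an unadjusted p below 0.05.

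Genes known to respond to angiotensin II in smooth muscle went in both directions, 6 of 14 higher and 8 lower (median -0.05). SPP1, the matrix protein osteopontin, had the largest value at 1.56 ± 0.56 (limma unadjusted p = 0.0107, adjusted p = 0.985). It ran from 7.93 to 14.3 in old and 7.43 to 8.85 in young females, and from 7.85 to 11.1 in old and 7.11 to 8.52 in young males. RCAN1, an inhibitor of calcineurin, was at -0.67 ± 0.30 (limma unadjusted p = 0.0334, adjusted p = 0.985), with means of 10.6 in old and 11.2 in young males and of 10.2 in old and 10.9 in young females. FOS was at 0.95 ± 0.67, but 0.30 without the divergent samples, and EDN1, which encodes endothelin, was at -0.31 ± 0.23.

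**Figure D4:**
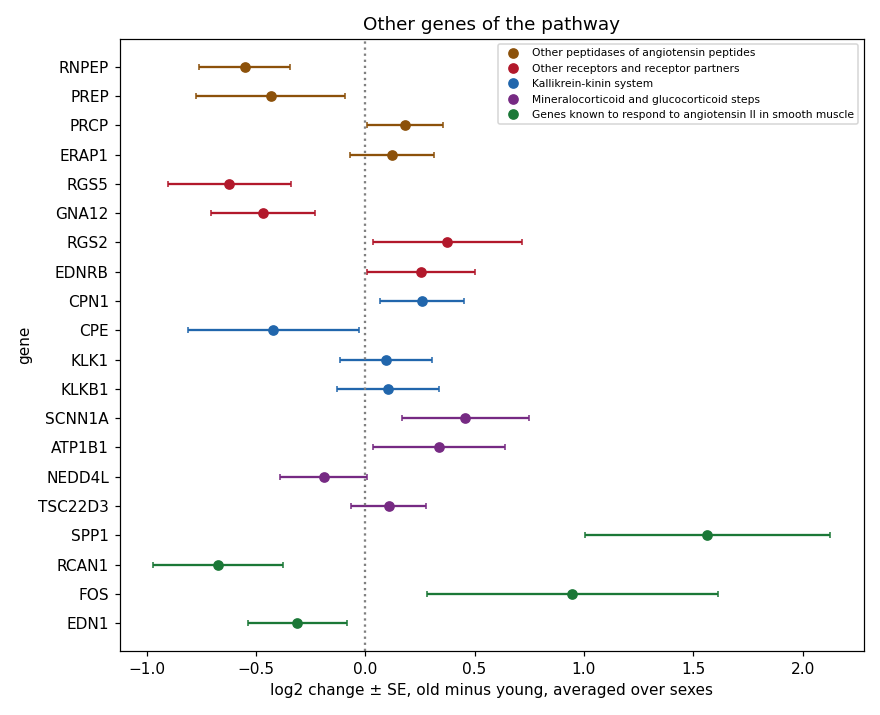
Log2 change with age averaged over the sexes (old minus young, ± SE from limma, 21 samples) for the named genes of 5 pathway lists, coloured by list. SPP1 at 1.56 lies highest and RCAN1 at -0.67 lowest, and no gene passed the threshold.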

How the data were processed

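Per the labels' protocols, total RNA of thoracic aorta was reverse-transcribed and labelled with biotin. The authors deposited linear intensities for 22277 probe sets on 24 arrays; no source used here states how probes were summarised or arrays scaled, though the 2% trimmed mean was near 500.1 on every array. Symbols came from the platform annotation. The 62 control probe sets were left out, log2(intensity + 16) was quantile normalised, and 3 pairs of near-identical arrays were averaged (the SD of the log2 difference was 0.23 to 0.38 within them and 0.43 to 1.08 in the 273 others). Limma 3.58.1 in R 4.3.3 was fitted to 21 samples with a mean per group, empirical Bayes moderation and an intensity trend, on the 11108 probe sets past the filter; members below it were taken from a fit of all 22215. P-values were adjusted by Benjamini-Hochberg. The fit was tested on simulated data. Array number limits the precision, and the pseudocount understates changes of dim genes. The members and lists were chosen with earlier results of these data known. All member probe sets are named, with the 4 genes of smallest averaged p per list (brightest probe set per gene) and 3 most alike genes per member.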

Additional observations from a re-analysis of the deposited data

Results flagged for a closer look

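In 2 of 48 combinations of member probe set and group, 1 sample stood far from the rest of its group, and chance sets about 1 group in 20 apart in this way. Both concern NR3C2 (205259_at) and both are divergent samples. Old male 2 read 8.13, against 9.27 to 9.88 in the other 5 old males, and young male 1 read 8.05, against 9.41 to 9.88 in the other 4 young males.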

How the results depend on the processing

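No member, and no named pathway gene in its change averaged over the sexes, passed the threshold in any of the 32 alternatives (21 without 1 sample and 11 others); the changes of the pathway genes within a sex and in the interaction were not run under them. There the lowest limma adjusted p was 0.0678 for the members, for AGTR1 (205357_s_at) in males with array weights, and 0.329 for the pathway genes. Of 40 member values 27 kept their sign throughout and 13 did not, and of 20 pathway values 14 did and 6 did not; for the changes of sign below the cause was not tested. Unless males, females or the interaction are named, values are averaged over the sexes. With a pseudocount of 1, ANPEP in females was -0.043. With median-centred arrays ENPEP (204845_s_at) in males was -0.020 and TSC22D3 was -0.0016. With 24 arrays counted, ENPEP (204845_s_at) in males was -0.14, AGT in females -0.087, AGTR1 (208016_s_at) in females 0.0025, ANPEP in females -0.25 and AGTR1 (205357_s_at) 0.00057. With array weights ENPEP (204844_at) in males was 0.13, and ANPEP was 0.41 in males and -0.12 in females. Without the 6 divergent samples AGT in males was -0.087, ENPEP (204845_s_at) in males -0.068, ANPEP 0.47 in males and -0.27 in females, AGTR1 (208016_s_at) in females 0.24 and ATP1B1 -0.078. With the actin ratio as a covariate ENPEP (204844_at) in males was 0.047, and ANPEP was 0.010 in males and -0.27 in females. With the white adipocyte marker mean as a covariate AGTR2 (222321_at) in males was 0.066, NR3C2 in males 0.42, ANPEP in females -0.10, ERAP1 -0.082, EDNRB -0.035, KLK1 -0.12 and KLKB1 -0.10.

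Leaving out 1 sample at a time, AGTR1 (205357_s_at) ran from -0.16 to 0.011, AGTR1 (208016_s_at) from -0.22 to 0.19 in females and from -0.49 to 0.073 in the interaction, and in males AGTR2 (207294_at) from -0.37 to 0.11, AGTR2 (222321_at) from -0.56 to 0.11, ENPEP from -0.53 to 0.19 (204844_at) and from -0.21 to 0.27 (204845_s_at). ANPEP ran from -0.38 to 0.34 in males and from -0.26 to 0.33 in females, NR3C2 from -0.44 to 0.11 in males and from -0.12 to 0.25 in females, KLK1 from -0.021 to 0.22 and KLKB1 from -0.0067 to 0.24. The NR3C2 limits in males belong to young male 1 and old male 2. With the replicate number as a block 0 members were called in each comparison, ENPEP (204845_s_at) in males was -0.16, and over all probe sets the calls were 2 in males, as without the block, and 1 against 0 when averaged. Whether a replicate number links samples across groups was not settled by their correlations. Of 30 same-numbered pairs across groups 14 had deviations correlated above 0.1, against 50 of 135 other pairs. Among the same-numbered pairs r ran from -0.43 to 0.51 (median 0.07), and among the others from -0.50 to 0.50 (median -0.003).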
